A study of Mus musculus with 6 samples.

Results

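The Id and E protein transcripts were examined in stage 0 invariant natural killer T (iNKT) cells, the earliest CD1d-tetramer-binding precursors just after positive selection in the thymus. The 5 members, Id2, Id3, Tcf3, Tcf4 and Tcf12, were taken by gene symbol from the 48397 rows of the deposited count table, and all 5 were among the 12312 genes left after a filter on low counts. Mice aged 8 to 10 weeks of 2 genotypes were compared with 3 libraries each, and every library came from the pooled thymi of 3 mice, from which about 1000 cells were recovered. The control group was wild-type BALB/c. The other group was SKG, a BALB/c-background strain whose hypomorphic Zap70, the kinase downstream of the T cell receptor (TCR), transmits a weaker signal. The allele is in the germline, so all other thymocytes of these mice carry it too. Cells were sorted as PBS57-CD1d tetramer+, CD44-, CD24+, CD69+, CD4 low or negative and CD8-. Because a replicate was a pool of mice, the p-values below measure the spread between pools.

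E proteins are basic helix-loop-helix transcription factors that pair with each other and bind short DNA motifs called E-boxes, with the letters CANNTG. Tcf3 encodes the splice forms E12 and E47, together called E2A, while Tcf12 encodes HEB and Tcf4 encodes E2-2. Id proteins have the helix-loop-helix but no basic region, so a dimer of an Id protein with an E protein does not bind DNA. In double-positive (CD4+ CD8+) thymocytes, E2A and HEB hold cells at that stage and keep recombination genes on, and TCR signals acting through ERK and Egr factors induce Id3, which lowers E protein activity at positive selection. HEB is needed for iNKT cells to form, and Id2 and Id3 shape the effector subsets that follow. The same symbols are in use as older names of Tcf7l1 (Tcf3) and Tcf7l2 (Tcf4), HMG-box factors that are not among the genes described here.

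The clearest difference between the genotypes was found for Tcf3. It was at 402, 381 and 391 CPM (read counts relative to library size, scaled with TMM factors) in BALB/c replicates 1 to 3 and at 582, 648 and 496 CPM in SKG replicates 1 to 3. The 3 SKG libraries therefore all lay above the 3 BALB/c libraries, which were very close to each other. The BALB/c mean was 391 ± 10.3 CPM and the SKG mean 575 ± 76.3 (SD, n = 3 libraries each). Expressed as SKG over BALB/c, the fold change fitted by edgeR's quasi-likelihood test across all genes was 1.47, with a 95% interval from 1.16 to 1.86. On the log2 scale this was 0.56 with a standard error of 0.14 and an edgeR adjusted p of 0.686, so Tcf3 did not pass the threshold of an FDR under 0.1. At 0.00652 its unadjusted p in that fit ranked 117 among the 12312 genes tested. With 3 libraries against 3, the two-sided exact permutation test on this gene alone gave p = 0.1, the smallest it can give.

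**Figure D1:**
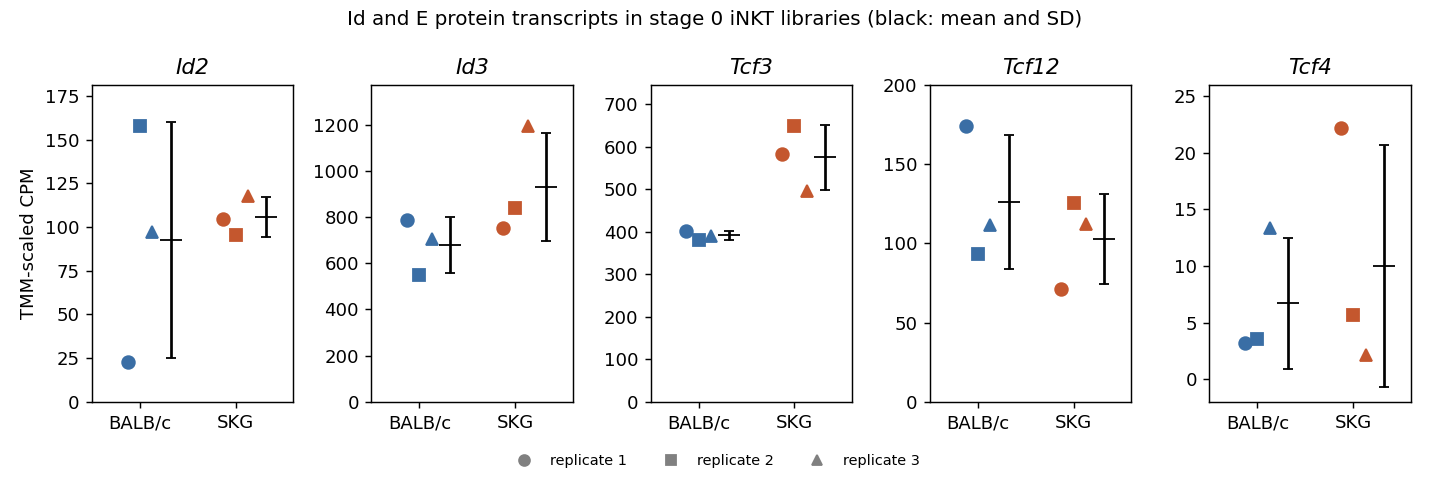
TMM-scaled CPM of the 5 members (y axis, a separate scale for each gene) in the 3 BALB/c libraries (blue) and the 3 SKG libraries (red), with marker shapes for replicates 1 to 3 and black bars for the mean and SD. The genotypes are apart for Tcf3 and overlap for the other members, and BALB/c replicate 1 is lowest for Id2, at 22.8 CPM, and highest for Tcf12, at 174.

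Tcf3 lies on chromosome 10 of GRCm38 from 80409514 to 80433647, on the minus strand. The 250 bases before its RefSeq start site (GRCm38.p6, chr10:80433636-80433885, minus strand) are shown because Tcf3 was the member that differed most clearly and because its own product binds E-boxes. Capitals mark the single match to CANNTG, found on both strands since the motif is its own reverse complement, at position -54 from the start site.

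Tcf3 upstream: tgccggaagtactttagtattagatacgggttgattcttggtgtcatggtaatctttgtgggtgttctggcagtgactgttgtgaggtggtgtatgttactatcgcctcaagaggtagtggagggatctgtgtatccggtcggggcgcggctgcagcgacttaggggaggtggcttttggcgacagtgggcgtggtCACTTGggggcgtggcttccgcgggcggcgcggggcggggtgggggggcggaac

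Such a match is common, since 66.2% of 32851 RefSeq promoter windows of that length hold one. The windows of Id2 (CAGCTG at position -196) and of 2 of 3 Tcf12 start sites (CAGCTG at -240, CAAGTG at -149) hold one each, and that of Id3 holds none. GCGNGGGCG, the letters that Egr factors bind, was searched on both strands and was present in 4.70% of all windows and in none of the windows of Id2, Id3, Tcf3 and Tcf12. These letters describe the windows alone, and the count data do not bear on binding. The windows of Id3 and Id2 lie inside the GENCODE genes, with 250 and 161 of their 250 bases in exons. Bases before the GENCODE starts of Id3 and Id2 were thus not searched. The Tcf12 window without a match also lies inside its gene, with all 250 bases in exons.

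Genes were called where the FDR was below 0.1 and the change reached 1.5-fold. EdgeR called none of the members, against a background of 0% (0 of 12312 genes, with 671 genes, or 5.45%, at an unadjusted p under 0.05). Of the 5 members, 1, Tcf3, had an unadjusted p under 0.05. It was also the single member whose libraries did not overlap between the genotypes, a state found for 13.9% of all genes tested in either direction and for 6.77% with SKG higher. DESeq2, which called 2.58% of the genes it tested without shrinkage of the fold changes and 1.67% with it, called 0 of the 5 members. For Tcf3 the DESeq2 test without shrinkage gave an adjusted p of 0.0855, under the FDR threshold, at a log2 fold change of 0.58 that was just under the fold-change threshold of 1.5. Tcf3 would therefore have been called at the FDR alone, as 2.66% of the genes were in that test. With shrunken fold changes its adjusted p was 0.116.

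When single libraries were omitted, the log2 fold change of Tcf3 was lowest, at 0.47, without SKG replicate 2. It was highest, at 0.67, when SKG replicate 3 was absent. Its unadjusted edgeR p stayed between 0.00305 and 0.0278 in those 6 fits. It was 0.0239 with the title number as a replicate block and 0.106 with the library number, so it was not under 0.05 in every fit.

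Id3 was the most abundant member. It lies on chromosome 4 from 136143497 to 136145755 (plus strand) and encodes the Id protein that TCR signals induce. Its BALB/c libraries were at 785, 548 and 706 CPM and its SKG libraries at 751, 841 and 1194 CPM. SKG replicate 3 was the highest library, while SKG replicate 1 lay below BALB/c replicate 1, so the genotypes overlapped. The BALB/c mean was 680 ± 121 CPM, against 929 ± 234 for SKG (SD, n = 3 libraries each). The fitted fold change was 1.37, with a 95% interval from 0.941 to 1.98, which includes no difference. The log2 value was 0.45 with a standard error of 0.22 (edgeR adjusted p = 0.952), and without SKG replicate 3 it was 0.24. SKG replicate 3 also had the highest levels of several markers of other cells, with the myeloid gene Lyz2 at 107 CPM (0.124 to 53.7 elsewhere), the dendritic and B cell factor Spib at 18.6 (at most 0.0772 elsewhere) and the epithelial gene Epcam at 86.9 (10.0 to 39.2 elsewhere). Their part in the Id3 level was not tested.

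The inducers of Id3 were counted from the same libraries. Egr1 was at 1784 ± 208 CPM in BALB/c and 942 ± 49.8 in SKG, and Egr2 at 1351 ± 230.1 and 777 ± 249 (SD, n = 3 libraries each). Both were higher in each BALB/c library than in any SKG library, and edgeR called neither (adjusted p = 0.447 and 0.834), although both had an unadjusted p under 0.05. DESeq2 without shrinkage called Egr1 (adjusted p = 0.000216) and not Egr2. The mean of Id3 lay on the other side, higher in SKG, in libraries that overlapped. Of the other inducers in the list, Egr3 had 0 to 78 reads and Smad3, which relays TGF-beta signals to Id genes, 3 to 1866 reads per library, both with overlapping groups. Their log2 fold changes of 1.80 and 2.15 (edgeR adjusted p = 0.991 and 0.988) rested on few reads in some libraries, and with -0.92 and -0.80 for Egr1 and Egr2 the 4 inducers had no common direction.

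Id2 lies on chromosome 12 from 25093799 to 25097140 (minus strand) and is known as the Id protein of innate-like and effector lymphocytes. Across the BALB/c libraries it was at 22.8, 158 and 97.3 CPM, and across the SKG libraries at 105, 95.4 and 118 CPM. The SKG libraries differed by 1.24 times at most, whereas the BALB/c libraries differed by 6.92 times and lay on both sides of them. Replicate 1 of BALB/c had 940 reads on Id2 and the 5 other libraries 3707 to 5852. Mean levels were 92.6 ± 67.6 CPM for BALB/c and 106 ± 11.4 for SKG (SD, n = 3 libraries each), and the fitted log2 difference was 0.20 with a standard error of 0.62 (edgeR adjusted p = 0.991). Its direction rested on that library, since without BALB/c replicate 1 the log2 fold change was -0.26.

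Tcf12, on chromosome 9 from 71842688 to 72111871 (minus strand), was at 174, 93.3 and 112 CPM in the controls and at 71.1, 126 and 112 CPM in SKG. It was the member with a lower mean in SKG, at 103 ± 28.4 CPM against 126 ± 42.3 for BALB/c (SD, n = 3 libraries each), and the libraries overlapped. The fitted log2 difference was -0.30 with a standard error of 0.33 (edgeR adjusted p = 0.991) and a 95% interval from -1.08 to 0.49. Without BALB/c replicate 1, the highest library, it was 0.014.

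Tcf4, on chromosome 18, was the least abundant member, with 130, 133 and 602 reads for the BALB/c libraries and 894, 219 and 78 for SKG. Mean levels were 6.69 ± 5.75 and 9.99 ± 10.7 CPM (SD, n = 3 libraries each). The reads corresponded to 3.15, 3.59 and 13.3 CPM and to 22.2, 5.63 and 2.16 CPM. A single library stood high in each genotype, BALB/c replicate 3 and SKG replicate 1, and the highest library exceeded the lowest by 10.3 times. Its log2 fold change of 0.58 had a 95% interval from -2.19 to 3.35 (adjusted p = 0.991 from edgeR), and it was -0.79 without SKG replicate 1 and 1.58 without BALB/c replicate 3. A difference of several-fold in either direction could thus not be detected for Tcf4 with these libraries.

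**Figure D2:**
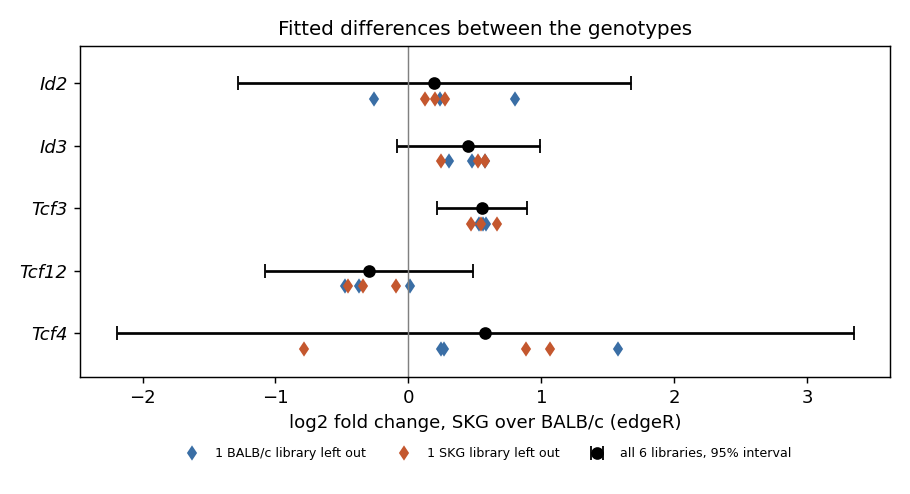
Log2 fold change, SKG over BALB/c, of each member in edgeR's fit to all 6 libraries (black point, bar for the 95% interval) and with 1 library left out (diamonds, blue for BALB/c and red for SKG). Tcf3 has an interval above 0, from 0.22 to 0.90, and all its diamonds lie to the right of 0, whereas those of Id2, Tcf12 and Tcf4 fall on both sides.

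Tcf4 and Id2 are characteristic of other cells that a thymus sort can hold, and E2A and HEB of double-positive thymocytes, so markers of such cells were summed in every library. The CD8- and CD4 low gate of the sort is meant to remove double-positive cells. The sum of 8 double-positive thymocyte markers (Cd8a, Cd8b1, Rag1, Rag2, Ptcra, Dntt, Arpp21 and Cd4) was 467 CPM in BALB/c replicate 1, and 176 and 71.3 in the other BALB/c libraries. It was 88.6, 169 and 242 CPM in the SKG libraries. The library with the highest sum, BALB/c replicate 1, was thus the one with the lowest Id2 and the highest Tcf12. The other libraries did not follow this order. At the lowest sum, in BALB/c replicate 3, Id2 was at 97.3 and Tcf12 at 112 CPM. At the next highest sum, in SKG replicate 3, they were at 118 and 112 CPM. Of the 8 markers, Cd8a was at 121 CPM in BALB/c replicate 1 against 20.4 to 66.3 in the others. Rag1, a recombinase gene, was at 34.9 CPM against 0 to 9.75. Cd8b1, Rag2, Ptcra and Dntt were highest there too. Arpp21 and Cd4 were not, at 43.4 and 29.5 CPM there and up to 70.2 and 33.5 elsewhere. The part of these cells in the Id2 and Tcf12 levels was not tested. In bulk RNA, fewer cells of a type and less RNA per cell cannot be told apart. For Tcf3, the log2 fold change without BALB/c replicate 1 was 0.58.

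**Figure D3:**
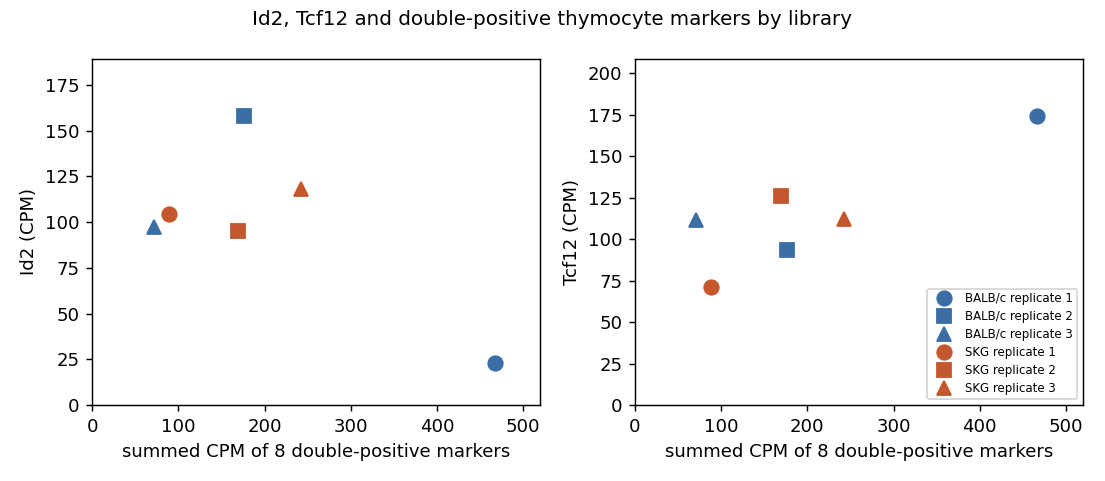
CPM of Id2 (left) and Tcf12 (right) on the y axes against the summed CPM of 8 double-positive thymocyte markers on the x axes, with 1 point for each library (blue for BALB/c, red for SKG). BALB/c replicate 1, at a sum of 467 CPM, stands apart from the other libraries in both panels, which reach 242 at most. At the lowest sum, 71.3, and at 242, Id2 is at 97.3 and 118 CPM and Tcf12 at 112 CPM in both.

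Markers of cells rich in Tcf4 or Id2 were summed in the same way, and their part in the members' levels was not tested. The 7 markers of plasmacytoid dendritic cells, whose identity depends on E2-2, summed to 45.1 to 125 CPM in BALB/c and 65.4 to 153 in SKG, highest in SKG replicate 3, the library with the lowest Tcf4. Ccr9, which thymocytes express too, made up most of this sum in the 5 other libraries, at 31.4 to 93.7 CPM. Siglech, a defining gene of these cells, had 270 reads there and 0 to 12 elsewhere. The 6 B cell markers summed to 1.73 to 6.84 CPM in BALB/c and 3.11 to 8.38 in SKG, and Pax5, the defining factor, had at most 5 reads. The 6 markers of innate lymphoid or NK cells summed to 12.7 to 15.7 CPM in BALB/c and 2.26 to 4.86 in SKG, without overlap, and Fcer1g made up most of the sum in 5 of the 6 libraries, with Ncr1 and Eomes at 0 reads in every library. DESeq2 called Fcer1g lower in SKG both without and with shrinkage (adjusted p = 0.0611 and 0.0799, log2 fold change -1.94 without shrinkage), and edgeR did not (adjusted p = 0.952). The 5 myeloid markers reached from 3.41 to 69.6 CPM in BALB/c and from 6.65 to 135 in SKG, highest in SKG replicate 3, with Csf1r at 3 reads at most. The 5 thymic epithelial markers, of which Krt5 and Psmb11 had 0 reads in all libraries, reached from 28.1 to 40.3 and from 10.0 to 86.9 CPM, again highest in SKG replicate 3 and nearly all from Epcam. As for the labelled cell type, Cd3e, Cd3d, Lck, Cd24a, Cd69 and Egr2 were detected in all 6 libraries. Cd44, which the sort excludes, had 4 to 536 reads. The sort excludes CD8 too, but Cd8a had 922 to 4985 reads and Cd8b1 592 to 4958. Cd24a, which the sort requires, had 271 to 3443. In CPM, Cd8a was above Cd24a in every BALB/c library and in SKG replicate 1, and below it in SKG replicates 2 and 3. Cd69, the activation marker used in the sort, was higher in all 3 BALB/c libraries than in any SKG library (log2 fold change -0.87, adjusted p = 0.686 from edgeR).

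Levels of different genes were compared as CPM per kilobase of merged exons. On this scale Id3 was at 449 ± 120.2 (SD over the 6 libraries), Tcf3 at 120 ± 27.7, Id2 at 40.7 ± 18.0, Tcf12 at 7.38 ± 2.23 and Tcf4 at 0.305 ± 0.288. The libraries of Id3 (306 to 666), Tcf3 (94.4 to 160) and Id2 (9.35 to 64.7) did not overlap in this order, and Tcf4 (0.0788 to 0.810) lay below all others. Id2 and Tcf12 did overlap as neighbours, because in BALB/c replicate 1 Tcf12 was at 11.2 and Id2 at 9.35. Merged exons of Tcf12 and Tcf4 add up to 15529 and 27382 bases over 21 and 62 annotated transcripts, which lowers their levels on this scale, and splice forms cannot be separated in counts per gene.

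Within each class a single gene therefore made up most of the level. Tcf3 accounted for 92.1% ± 2.11 of the summed E protein level in BALB/c and 95.3% ± 1.02 in SKG, and Tcf12 for 7.66% ± 2.17 and 4.47% ± 1.28 (SD, n = 3 libraries each). With basic transcript lengths the share of Tcf12 was 10.3% to 17.0% in BALB/c and 5.41% to 9.64% in SKG. The share depends on the length used. In mean CPM not divided by length, Tcf12 was at 126 in BALB/c and 103 in SKG, against 391 and 575 for Tcf3. Id3 accounted for 90.4% ± 7.70 of the Id level in BALB/c and 92.1% ± 1.27 in SKG. The summed E protein level was 111, 100 and 104 CPM per kilobase for BALB/c replicates 1 to 3 and 149, 169 and 130 for SKG, so that every SKG library was above every BALB/c library, as for Tcf3 itself.

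The balance of the classes did not separate the genotypes. Divided by the summed E protein level, the Id level was 4.04, 3.69 and 4.16 in BALB/c and 3.10, 3.02 and 5.50 in SKG. In SKG replicates 1 and 2 the ratio was below all BALB/c libraries, and in SKG replicate 3, where Id3 was highest and Tcf3 lowest among the SKG libraries, it was above them. SKG replicate 3 also had the highest sums of plasmacytoid dendritic, B cell, myeloid and thymic epithelial markers. The double-positive thymocyte sum and the innate lymphoid or NK sum were highest in BALB/c libraries. The part of such cells in the ratio was not tested. The means were 3.96 ± 0.245 and 3.87 ± 1.41 (SD, n = 3 libraries each), given without a test. The level of the ratio and the order of the means depended on the length used. It was 1.48 in BALB/c and 1.54 in SKG when reads were not divided by length, and 4.03 and 4.05 with the lengths of GENCODE's basic transcripts, an alternative added after seeing the data. SKG replicate 3 was the highest library under each of these.

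**Figure D4:**
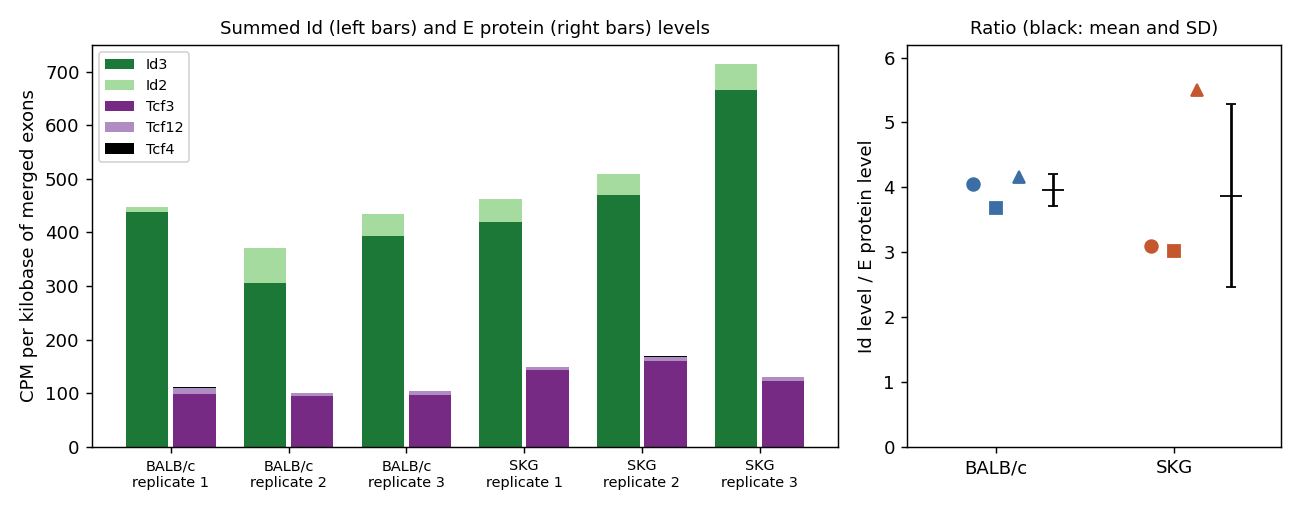
Left, summed Id (Id3 and Id2, green) and E protein (Tcf3, Tcf12 and Tcf4, purple and black) levels in CPM per kilobase of merged exons for each library. Right, the ratio of these sums by genotype with the mean and SD in black. Id3 and Tcf3 fill most of each bar, and the SKG ratios lie on both sides of the BALB/c ratios, from 3.02 to 5.50.

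Other genes of the pathway were grouped by role. None of the 8 other Id genes and HLH partners (Id1, Id4, Tal1, Lyl1, Hes1, Hey1, Bhlhe40 and Bhlhe41) passed the filter on low counts. Id4 had 0 reads in all 6 libraries, and Id1 had 93 reads in SKG replicate 1 and at most 2 elsewhere. Id2 and Id3 were thus the Id genes with more than isolated reads in these cells.

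Of the 9 cofactors of E proteins, 8 were tested and 0 were called by edgeR. In edgeR 1 had an unadjusted p under 0.05, against 5.45% of all genes tested. DESeq2 called 1, against 2.58% of all genes without shrinkage and 1.67% with it. Both of these were Ldb1. The median log2 fold change of the 8 was 0.13, against -0.02 over all genes tested. Ldb1, the adaptor that links E proteins to LMO factors and bound DNA, was at 85.9 ± 11.5 CPM in BALB/c and 155 ± 12.4 in SKG (SD, n = 3), higher in all 3 SKG libraries. Its log2 fold change was 0.85 with a standard error of 0.19 (edgeR adjusted p = 0.619), and the adjusted p was 0.00121 by DESeq2 without shrinkage. Crebbp, a histone acetyltransferase that E proteins recruit, was at 93.4 ± 32.5 and 59.2 ± 6.92 CPM (SD, n = 3), higher in all BALB/c libraries (log2 fold change -0.66, adjusted p = 0.952 from edgeR). Over all genes tested, 13.9% had libraries that did not overlap between the genotypes.

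Among 16 genes that E proteins activate in thymocytes, 11 were tested, 7 with a log2 fold change above 0 and 4 below, and 0 were called by edgeR or by DESeq2. Their median log2 fold change was 0.32, against -0.02 over all genes tested. Notch1, a receptor that drives T cell commitment, was at 54.7, 29.1 and 63.2 CPM in the controls and at 86.0, 87.5 and 88.8 CPM in SKG, and it was the single target with an unadjusted p under 0.05 (log2 fold change 0.84, adjusted p = 0.895 from edgeR). Its libraries did not overlap. Over all genes tested, 13.9% did not overlap and 5.45% had an unadjusted p under 0.05 in edgeR. Zbtb16, which encodes PLZF and is bound by E proteins, was at 151 ± 28.0 and 119 ± 41.8 CPM (SD, n = 3), with overlapping libraries. Bcl2l1, the survival gene Bcl-xL, was at 11.7 ± 7.46 and 29.0 ± 11.5 CPM (SD, n = 3), also with overlap. The recombination genes Rag1 and Rag2 and the pre-TCR gene Ptcra each had 0 reads in at least 1 library.

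Of 9 iNKT effector and fate genes, 6 were tested, with a median log2 fold change of -0.21, and 0 were called by edgeR or DESeq2 or had an unadjusted edgeR p under 0.05. Gata3, the factor of iNKT2 cells, was at 628 ± 30.4 CPM in BALB/c and 557 ± 157 in SKG (SD, n = 3), with overlapping libraries. Tbx21 (T-bet, the factor of iNKT1 cells) and Eomes each had 0 reads in all 6 libraries.

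**Figure D5:**
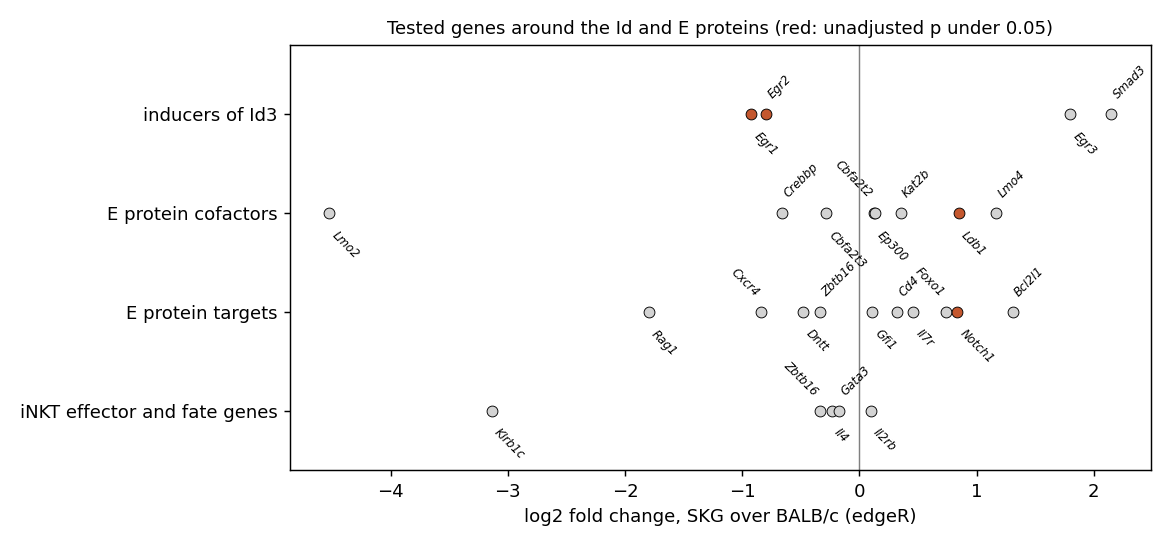
Log2 fold change, SKG over BALB/c (x axis), of tested genes in 4 groups around the Id and E proteins, without 1 gene that is not reported here, with 1 point a gene and red for an unadjusted edgeR p under 0.05. Egr1 and Egr2 lie at -0.92 and -0.80, Ldb1 and Notch1 at 0.85 and 0.84, and edgeR called no gene shown.

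Genes with the most similar profiles over the 6 libraries were listed for each member among 8378 genes with a mean of at least 10 CPM, as a description only, since 6 points that share depth and preparation give high correlations for many genes. For Tcf3 they were Apeh (Pearson r = 0.993), Ephb6 (0.980) and Dstn (0.975). For Id3 they were Fam63a (0.987), Ufl1 (0.986) and Lancl1 (0.984). Id2 was matched by Wwox (0.997) and Cwf19l2 (0.993), Tcf12 by Igsf3 (0.995), Rabl3 (0.993) and Chchd4 (0.977), and Tcf4 by Eif2b5 (0.989), Thoc2 (0.969) and Dscc1 (0.967).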

How the data were processed

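RNA of 6 libraries was sequenced with 50-nt single-end reads. The authors aligned them with Hisat2 2.1.0 to GRCm38 and counted reads on exons with featureCounts (subread 1.4.4), ignoring strand and dropping reads mapped with a quality below 10 (Ensembl annotation). The deposited counts are whole numbers per gene symbol, neither normalized nor filtered. The labels and the methods name different amplification kits, and neither mentions molecular identifiers. Totals ranged from 37176544 to 43115544 counts per library, and 10835 to 14791 genes had at least 10 reads. A second deposited table, the authors' DESeq2 comparison (fold changes, errors and p-values), was not used.

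Counts were fitted in R 4.3.3 with edgeR 4.0.16 (filterByExpr, TMM, quasi-likelihood F test, Benjamini-Hochberg over 12312 genes). Standard errors are the absolute log2 fold change over the square root of F. DESeq2 1.42.0 and limma-voom (limma 3.58.1) were alternatives. The edgeR and DESeq2 fits were also run on simulated data, whose outcome is not given here. The common dispersion in edgeR was 0.842, a coefficient of variation of 91.8% between libraries. Among the members it was lowest for Tcf3, at 16.7%, and highest for Tcf4, at 106%. No exons of the members overlap other genes in GENCODE M21, which gave lengths and positions. Promoter windows are from RefSeq. Members and gene lists were chosen with earlier results of these data known. Named genes are the members, up to 4 genes of each list by lowest p (or those at 0 reads), markers, and for each member the 3 genes most correlated with it. A list gene and a correlated gene are not reported here, and the list gene stays in the counts. Libraries of the same title number had residual correlations from -0.145 to -0.00962, and of the same library number from -0.0384 to 0.00289, so they were not paired.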

Additional observations from a re-analysis of the deposited data

How the results depend on the processing

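EdgeR called 0 genes (671 at an unadjusted p under 0.05). It also called 0 with RLE size factors, library size alone, a stricter filter, either replicate block, any 1 library omitted, an FDR of 0.05 or no fold-change threshold, as did limma-voom. Without a filter on low counts it called 2. DESeq2 called 370 without shrinkage and 231 with it, and at the FDR alone, an alternative added after seeing the data, 381 and 239. No member was called in any of these except Tcf3, by DESeq2 without shrinkage at the FDR alone. With the replicate number of the titles as a block, the log2 fold change of Tcf3 was 0.55, and with the library number 0.53, and neither block changed a call, though the unadjusted p of Tcf3 was 0.106 with the latter.

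The direction held for Id3 and Tcf3 in all 17 alternatives and turned in 1 for each other member. DESeq2 at the FDR alone, without and with shrinkage, is among the 17. It reuses the same DESeq2 fits, so it could not change a direction. With 1 library left out, the log2 fold change lay between -0.26 and 0.81 for Id2, 0.24 and 0.57 for Id3, 0.47 and 0.67 for Tcf3, -0.48 and 0.014 for Tcf12, and -0.79 and 1.58 for Tcf4. The Id to E protein ratio was 1.48 in BALB/c and 1.54 in SKG when reads were not divided by length. For Id3 over Tcf3 plus Tcf12 alone it was 3.60 in BALB/c and 3.58 in SKG. With the shorter lengths of GENCODE's basic transcripts, added after seeing the data, levels per kilobase were 629 for Id3, 151 for Tcf3, 16.9 for Tcf12 and 0.624 for Tcf4, in the same order.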

Other observations

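The ratios within each class, computed after the members' values had been seen, are given as values without a test. On the scale of CPM per kilobase, Tcf3 exceeded Tcf12 by 8.88, 15.7 and 13.5 times in the BALB/c libraries and by 31.5, 19.8 and 17.0 times in the SKG libraries, which did not overlap. This is not a result separate from that of Tcf3, whose own libraries did not overlap, while those of Tcf12 did. With basic transcript lengths the ratios of Tcf3 to Tcf12 were lower, from 4.89 to 8.65 in BALB/c and from 9.37 to 17.3 in SKG. Id3 exceeded Id2 by 46.9 times in BALB/c replicate 1 and by 4.73 to 13.8 times in the 5 other libraries, and by 65.7 and 6.62 to 19.3 times with basic transcript lengths.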
